A study of Mus musculus with 88 samples.

Results

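The Nduf genes encode the nuclear subunits and several assembly factors of respiratory complex I. Their transcripts were followed in 6 tissues of 14 mice with Illumina MouseRef-8 microarrays. All probes whose annotated gene symbol starts with Nduf were taken, which gave 53 probes of 40 genes among 25697 probes. The mice were female BALB/c nude mice aged 4 months, all anesthetized, and the tissues were excised 24 h after irradiation with 2 Gy of 4 MV photons or after sham treatment. Group A (3 mice) was irradiated at the collum, the neck region that holds the thyroid. Group B (3 mice) was irradiated at thorax and abdomen, and group C (3 mice) at collum, thorax and abdomen together. Sham-irradiated animals (5 mice) were the controls. The athymic nude strain lacks mature T cells, so none of the groups stood for an animal with a full immune system. Thyroid, spleen, lungs, liver and the medulla and cortex of the kidney were measured for each mouse without pooling, and the labels do not say whether equal replicate numbers in 2 tissues are the same mouse.

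Complex I is the largest enzyme of the mitochondrial respiratory chain. It takes electrons from NADH, passes them to ubiquinone and moves protons across the inner membrane. Its subunits form an arm that takes in electrons (N module), an arm that reduces ubiquinone (Q module) and a membrane arm that pumps protons (P module). Of the subunits kept since bacteria, those encoded in the nucleus carry the redox centres and the ubiquinone site. The other nuclear subunits are called supernumerary, and assembly factors named Ndufaf help to build the complex without staying in it. Ndufa4 carries the family name but is a subunit of complex IV. Kidney tubules and striated muscle are known to be rich in mitochondria.

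A probe was tested in a tissue when its detection p was under 0.01 on at least 3 arrays of that tissue. Of the 53 probes, 49 passed in kidney cortex, kidney medulla, liver and spleen, and 50 in lungs and thyroid, each time of 39 genes. This was 92.5% to 94.3% of the members, beside 41.3% to 52.0% of all probes. The only probe of Ndufs1, the largest core subunit, did not pass in any tissue, nor did 2 of the 3 probes of Ndufaf7. A second probe of Ndufb11 passed in lungs and thyroid only. Of the nuclear core subunits, 5 were analysed here. Ndufa4l2, the paralog of Ndufa4, was not analysed here. The probe annotated to the pseudogene Ndufs5-ps may share sequence with Ndufs5 transcripts, and its value is uncertain for that reason. Levels are log2 intensities, and levels of different probes were not compared with each other. In tissue samples, a lower level can stand for fewer cells of a type or for less RNA per cell, and these cannot be told apart.

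On each array 33.2% to 50.3% of all probes were detected. Tissue markers were detected as labelled in kidney (7 of 7 proximal tubule markers in cortex and medulla), in lungs (7 of 7 lung epithelium markers) and in spleen (5 of 5 lymphocyte markers on the array), and 5 of 7 hepatocyte markers were detected in liver. Detection did not separate the kidney parts, since 7 of 8 markers of thick ascending limb and collecting duct were detected in cortex and 8 in medulla. In spleen, 5 of 5 pancreatic acinar markers on the array were also detected. The thyroid samples went against their label in part. All 10 skeletal muscle markers were detected in them, at a mean log2 level of 13.73 to 14.25 in 13 of 14 samples. Of the fat markers on the array, 4 of 5 for brown fat and 3 of 4 for white fat were detected in them. Both parts of the kidney also had 3 of 5 brown fat markers detected. Tg, which encodes thyroglobulin, was detected in 7 of the 14 thyroid samples. Of the thyroid follicle markers on the array, 3 of 5 were detected on at least 3 arrays (Tg, Pax8 and Foxe1) and Tshr and Slc5a5 were not, and both parathyroid and C cell markers on the array were detected. The thyroid sample of group A replicate 2 stood apart, with skeletal muscle markers at 4.68 and salivary gland markers at 12.86. In the lungs, 6 of 6 heart muscle markers on the array were detected, at 6.04 to 10.97 per mouse.

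The genes that carry the irradiation result below were Ndufa5 (mouse GRCm38.p6, chr6:24518662-24527690), Ndufb2 (chr6:39592565-39599843), Ndufb4 (chr16:37647602-37654368) and Ndufb9 (chr15:58933801-58939516). The 250 bases before the most upstream annotated start are shown for the 3 of them that have an entry in the RefSeq table of GRCm38.p6. They were chosen because a probe of each rose past the threshold given below in the kidney medulla of group B. For Ndufa5 this was the dimmer probe ILMN_2691460 and not the brighter one, and Ndufb2 did not pass in group A. They lie at chr6:24527691-24527940 on the minus strand for Ndufa5, chr6:39592315-39592564 on the plus strand for Ndufb2 and chr16:37654369-37654618 on the minus strand for Ndufb4. They are written 5′ to 3′ on the strand of the gene, and capitals mark matches on either strand to the letters CCAAT (the CCAAT box), AAGGTCA (the core site of estrogen-related receptors) and GGGCGG (the GC box).
Ndufa5: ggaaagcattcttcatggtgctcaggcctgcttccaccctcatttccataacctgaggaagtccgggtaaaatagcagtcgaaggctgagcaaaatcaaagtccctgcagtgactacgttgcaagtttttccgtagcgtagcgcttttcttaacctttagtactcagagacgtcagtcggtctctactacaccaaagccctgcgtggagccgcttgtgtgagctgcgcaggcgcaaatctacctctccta
Ndufb2: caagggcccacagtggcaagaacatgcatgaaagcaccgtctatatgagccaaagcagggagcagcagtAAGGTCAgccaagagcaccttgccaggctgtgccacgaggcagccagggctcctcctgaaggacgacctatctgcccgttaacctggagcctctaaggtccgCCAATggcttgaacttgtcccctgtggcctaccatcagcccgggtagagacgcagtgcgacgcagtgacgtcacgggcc
Ndufb4: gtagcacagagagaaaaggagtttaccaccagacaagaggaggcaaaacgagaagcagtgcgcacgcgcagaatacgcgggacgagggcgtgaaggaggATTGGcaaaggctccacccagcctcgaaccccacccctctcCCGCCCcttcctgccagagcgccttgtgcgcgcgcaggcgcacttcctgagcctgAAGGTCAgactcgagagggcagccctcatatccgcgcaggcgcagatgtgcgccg
The letters AAGGTCA were found before 2 of the 36 member genes with an entry, Ndufb2 and Ndufb4, which was 5.56% of the members beside 4.04% of the 27025 genes of the table. CCAAT was found before 33.3% of the member genes and 34.5% of all genes, and GGGCGG before 44.4% and 33% of them. The letters CCGGAAG, the core of sites of ETS factors, stood before 11.1% of the member genes and 7.07% of all genes. The palindromic site of NRF1 was found before Ndufaf4 alone among the members (2.78%, beside 0.777% of all genes), and the YY1 letters AAGATGGC before no member (1.58% of all genes). TATAAA stood before 11.1% of the members and 13% of all genes. None of the 7 motifs was found before Ndufa5, and a match is only a match of letters.

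In the controls, the complex I genes were highest in the thyroid samples, intermediate in both parts of the kidney and in the liver, and lowest in spleen and lungs. The level of each member in a tissue was set against its mean over the other 5 tissues, for 49 members and 14954 probes in all. The median difference on the log2 scale was 1.14 for the thyroid samples, 0.545 for the cortex, 0.519 for the medulla, −0.18 for the liver, −0.855 for the spleen and −1.02 for the lungs. Over all probes these medians lay between −0.207 and −0.0889. Every one of the 49 members was below its mean of the other tissues in lungs and in spleen, while 48 were above it in cortex, 47 in thyroid, 41 in medulla and 14 in liver. The value of the liver changed sign with median scaling (0.115) and without the thyroid samples (0.0544). The thyroid samples were the highest tissue for 44 of the 49 members, beside 20.4% of all probes, and these are the samples in which skeletal muscle markers were high. Brown fat markers (3 of 5 genes tested) also stood highest there, with a median of 4.67 above the other tissues, followed by the medulla with 1.14. The part of muscle and of fat in this order was not tested. Without the thyroid samples, the medulla was highest for 26 members, the cortex for 18 and the liver for 5. The lungs were lowest for 35 members (18.1% of all probes) and the spleen for 14 (19.5%).

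**Figure D1:**
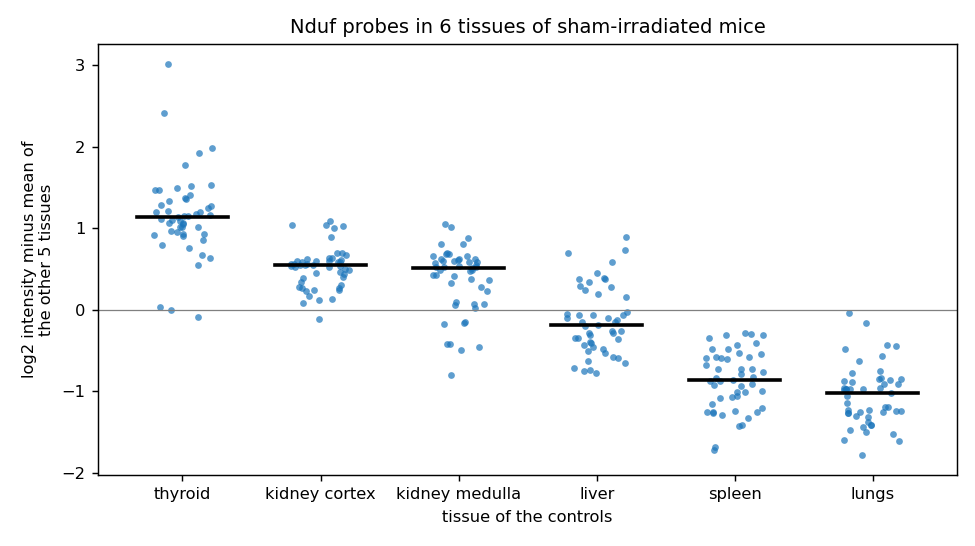
Difference between the control level of each Nduf member in a tissue and its mean over the other 5 tissues (log2, vertical axis) for the 6 tissues, with 1 point per member probe and the median as a line (n = 5 mice per tissue). The thyroid samples lie highest with a median of 1.14, the kidney parts near 0.5, and all 49 members lie below 0 in lungs and spleen.

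Pairs of control tissues were tested with limma, and a member was taken as different at an adjusted p (Benjamini-Hochberg) below 0.01 with a log2 difference of 0.58 or more. The percentages in parentheses are the shares of all 14954 probes that differed in the same direction. Cortex was above lungs for 47 of 49 members (24.2%), above spleen for 42 (27.7%) and above liver for 21 (22.3%). Medulla was above lungs for 41 members (23.6%) and above spleen for 45 (27.7%). Against liver the medulla was higher for 23 members (23.5%) and lower for 5 (20.8%). Liver was above lungs for 31 members (25.8%) and above spleen for 23 (25.1%). Lungs and spleen had the fewest members apart of the 15 pairs, with 4 lower in lungs (28.7%). The thyroid samples were above lungs for 48 members (26.3%), above spleen for 47 (27.6%) and above medulla for 22 (23.2%). They were above liver for 43 members (28.5%) and below it for 2 (24%), and above cortex for 18 (23.8%) and below it for 1 (23.9%). The thyroid of control replicate 4 was low for many members, and without replicate 4 the cortex and the thyroid samples differed in 29 members instead of 19.

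All 5 core subunits measured were highest in the thyroid samples, followed by medulla and cortex, and lowest in lungs, with liver and spleen in between in either order. Ndufv1, which binds NADH and flavin, had a level of 13.69 ± 0.12 in thyroid samples, 13.65 ± 0.14 in medulla, 13.42 ± 0.14 in cortex, 12.57 ± 0.13 in spleen, 12.54 ± 0.06 in liver and 11.99 ± 0.09 in lungs (SD, n = 5 mice each). Among neighbours in that order, only the step from cortex to spleen was past the threshold. Ndufv2, the partner of Ndufv1 in the N module, ran from 13.81 ± 0.13 in thyroid samples over 13.28 ± 0.08 in medulla, 13.12 ± 0.09 in cortex, 12.67 ± 0.12 in spleen and 12.41 ± 0.06 in liver to 12.28 ± 0.19 in lungs, and no pair of neighbours differed past the threshold.

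In the Q module, Ndufs3 ran from 13.05 ± 0.39 in thyroid samples over 12.52 ± 0.12 in medulla, 12.51 ± 0.08 in cortex, 11.95 ± 0.03 in liver and 11.16 ± 0.19 in spleen to 10.83 ± 0.17 in lungs. Its step from liver to spleen was past the threshold. Ndufs7, which carries the iron-sulfur cluster next to ubiquinone, ran from 13.59 ± 0.17 in thyroid samples over 12.98 ± 0.05 in medulla, 12.91 ± 0.12 in cortex, 12.23 ± 0.14 in liver and 12.18 ± 0.03 in spleen to 11.87 ± 0.20 in lungs. The steps from thyroid to medulla and from cortex to liver were past the threshold. Ndufs8, another iron-sulfur subunit, had 13.05 ± 0.27 in thyroid samples, 12.54 ± 0.08 in medulla, 12.24 ± 0.18 in cortex, 11.91 ± 0.07 in liver, 11.47 ± 0.10 in spleen and 10.99 ± 0.18 in lungs, with no neighbouring step past the threshold. Medulla stood above cortex in the mean of each of the 5 core subunits, but none of these differences was past the threshold.

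The medians of the 3 modules had the same sign in every tissue. The median difference from the other tissues was 0.502 in cortex and 0.51 in medulla for the N module (9 of 10 genes tested), 0.622 and 0.615 for the Q module (5 of 6 genes) and 0.589 and 0.519 for the P module (18 of 22 genes). In lungs these medians were −0.926, −1.24 and −1.19, and in the thyroid samples 1.06, 1.24 and 1.16. The Nduf assembly factors lay at 0.441 in cortex, 0.399 in medulla, −1.19 in lungs and 0.986 in thyroid samples (5 of 8 genes). Lists of the other respiratory complexes had the same direction in most tissues. Complex III had 0.49 in cortex, 0.585 in medulla and −0.781 in lungs, complex IV 0.585, 0.711 and −0.496, and complex V 0.447, 0.352 and −0.644. Complex II, succinate dehydrogenase with its assembly factors, had 0.868 in cortex and 0.0213 in medulla. Other lists departed from the Nduf order. Complex I assembly factors not named Nduf (12 of 14 genes) had 0.334 in medulla, 0.437 in liver and 0.16 in thyroid samples. A list for mitochondrial mass (5 of 6 genes) had 0.104, 0.379 and 0.0632. Both were lowest in lungs (−1.05 and −1.06).

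Single members departed from that order. Ndufab1, the mitochondrial acyl carrier protein, which also serves fatty acid and iron-sulfur cluster synthesis, was the member with the largest excess in liver, at 0.89 above the mean of the other tissues. Its level was 7.06 ± 0.27 in cortex, 6.96 ± 0.29 in liver, 6.21 ± 0.58 in thyroid samples, 6.07 ± 0.35 in medulla, 5.93 ± 0.40 in spleen and 5.07 ± 0.33 in lungs, where 1 of the 5 control arrays detected it. Ndufb9, a P module subunit, came next in liver (0.74) and had the largest excess in cortex (1.09), ahead of Ndufb5 (1.05). The largest deficits in liver were those of Ndufb8 (−0.77) and Ndufa3 (−0.75). In medulla Ndufb8 (1.05) and Ndufb6 (probe ILMN_1242233, 1.02) stood highest, and Ndufaf5 (probe ILMN_1216813, −0.81) and Ndufa5 (probe ILMN_2691460, −0.49) lowest. In lungs the lowest were Ndufaf4 (−1.78), an assembly factor, and Ndufb9 (−1.61), and in spleen Ndufb5 (−1.72) and Ndufc1 (probe ILMN_2983247, −1.69). Ndufa7 was the one member below the other tissues in cortex (−0.11).

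In the thyroid samples the assembly factor Ndufaf5 (probe ILMN_2747677) stood 3.02 above the mean of the other tissues, with a level of 11.32 ± 0.62 beside 9.14 ± 0.12 in medulla, the next tissue. Ndufb2, a P module subunit, followed at 1.99. Only Ndufv3 (probe ILMN_2688822, −0.09) and Ndufab1 (−0.01) were below the other tissues there. Ndufa4, the complex IV subunit, had 14.40 ± 0.20 in thyroid samples, 14.32 ± 0.09 in medulla, 14.28 ± 0.12 in cortex, 13.44 ± 0.11 in lungs, 13.34 ± 0.05 in liver and 13.23 ± 0.15 in spleen. It placed the lungs above the liver and the spleen, as did Ndufa7, Ndufa13 and Ndufc2 and none of the core subunits, although its only neighbouring step past the threshold was that from cortex to lungs.

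Cortex was above medulla in the control kidneys for 7 of 49 members, beside 5.25% of all probes. These were Ndufa5 (probe ILMN_2691460, log2 difference 1.26), Ndufb9 (1.25), Ndufb4 (1.22), Ndufaf5 (probe ILMN_1216813, 1.11), Ndufab1 (0.99), Ndufb5 (0.82) and Ndufs4 (probe ILMN_2663694, 0.58). With 1 replicate number left out of all tissues the count ran from 3 to 8. The other 42 members included all 5 core subunits. Ndufb9 had levels of 11.15, 11.14, 10.91, 11.08 and 11.09 in control cortex and 9.65, 10.19, 9.59, 9.91 and 9.77 in control medulla, so that the tissues did not overlap.

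Irradiation was compared with controls in 18 comparisons, 3 groups in each of 6 tissues, with all 4 groups of a tissue in 1 limma fit and with the threshold used above. Groups A, B and C shared their controls in every tissue. In the kidney medulla, 3 of 49 members rose in group A (all probes 1.24%), namely Ndufa5 (probe ILMN_2691460), Ndufb4 and Ndufb9. In group B 4 of 49 rose (all probes 1.74%), namely Ndufa5 (probe ILMN_2691460), Ndufb4, Ndufb9 and Ndufb2. No member fell in either group, beside 0.155% and 0.0407% of all probes. Leaving out 1 mouse of the group or 1 control took the count from 3 to between 0 and 1 in group A and from 4 to between 0 and 4 in group B, where it stayed at 4 only without control replicate 5. With no detection filter, which adds dim probes to the adjustment, 0 members were called in group A and 2 in group B. With the replicate number as a block, 0 members were called in either group, though the labels do not say what equal numbers share. In group C no member was called (0.13% of all probes), although 15 members had an unadjusted p under 0.05 (26.6% of all probes). In the 15 comparisons of the other tissues no member was called either. Of all probes, 0.0188% were called in the liver of group C, 0.00749% in the lungs of group B, and 0.00822%, 0.0493% and 0.0658% in the spleen of the 3 groups, and 0% in the other 10 comparisons. In the medulla no member and 0% of all probes differed between the irradiated groups. At an unadjusted p under 0.05, groups A and B differed there in 0 members (3.29% of all probes), A and C in 4 (7.52%) and B and C in 8 (7.91%), with C the lower group each time.

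Ndufb9 and Ndufb4 are supernumerary subunits of the P module, at the far end of the membrane arm. Medulla levels of Ndufb9 were 9.86, 10.37, 9.80, 10.11 and 9.97 in the controls. The mice of group A had 11.09, 11.27 and 11.29, those of group B 11.37, 11.37 and 11.25 and those of group C 11.39, 11.21 and 10.28. All mice of groups A and B and 2 of 3 mice of group C were above every control, and group C replicate 3 lay within the controls. In group B the log2 ratio was 1.31 (SE 0.209, adjusted p = 0.00433 by limma). For group C it was 0.94 (adjusted p = 0.0318), and for group A 1.19 (adjusted p = 0.00613).

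Ndufb4 showed the same arrangement of mice. Its medulla levels were 8.16, 7.70, 8.02, 8.41 and 8.24 in the controls. The mice of group A had 9.58, 9.50 and 9.27, those of group B 9.40, 9.75 and 9.59 and those of group C 9.37, 9.40 and 8.32. The log2 ratios were 1.34 in group A (SE 0.227, adjusted p = 0.00529 by limma), 1.47 in group B (adjusted p = 0.00391) and 0.92 for C (adjusted p = 0.0426). Replicate 3 of group C was again the mouse inside the control range.

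Ndufa5 is a supernumerary subunit of the Q module with 2 probes on the array. The probe ILMN_2691460 gave medulla levels of 8.90, 8.75, 8.68, 9.03 and 8.96 in the controls. The mice of group A had 9.88, 10.04 and 10.22, those of group B 10.21, 10.14 and 10.29 and those of group C 10.28, 9.59 and 8.89. The log2 ratios were 1.18 in group A (SE 0.224, adjusted p = 0.00904 by limma), 1.35 in group B (adjusted p = 0.00492) and 0.72 for C (adjusted p = 0.0749). The brighter probe ILMN_1216007 of the same gene had levels of 13.15, 13.31, 13.06, 13.15 and 13.14 in the controls and 13, 13.15 and 13.10 in group A, and the ratio was −0.08 for A, −0.03 for B and −0.27 for C. The 2 probes of Ndufa5 therefore gave different readings of the same animals.

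Ndufb2, a P module subunit, had medulla levels of 8.56, 8.59, 9.06, 8.96 and 9.06 in the controls. The mice of group A had 9.70, 9.58 and 9.82, those of group B 9.90, 9.80 and 9.80 and those of group C 9.82, 9.35 and 9.08. All irradiated mice were above all controls, group C replicate 3 by the smallest margin. The ratio was past the threshold in group B (0.98, SE 0.172, adjusted p = 0.00579 by limma) and not in group A (0.85, adjusted p = 0.0112) or group C (0.57, adjusted p = 0.0696).

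**Figure D2:**
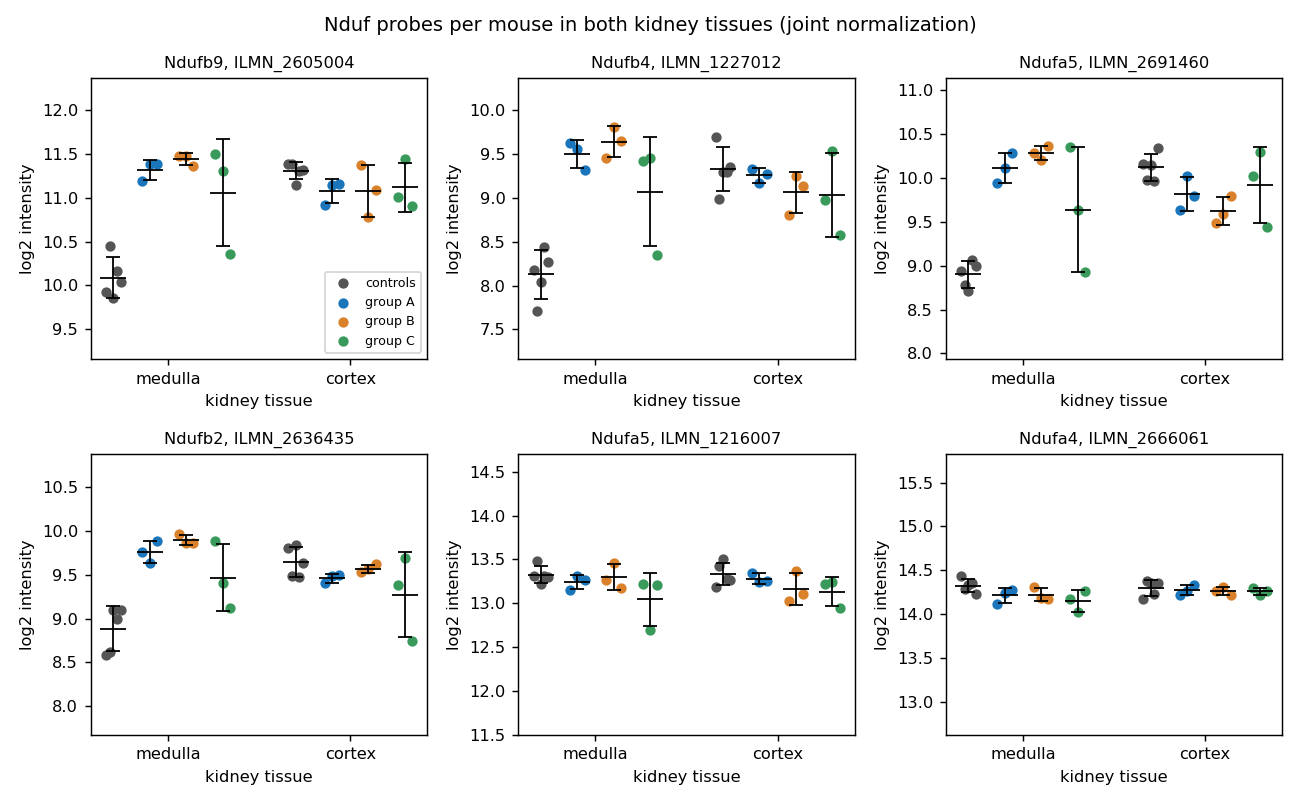
Log2 intensity of probes of Ndufb9, Ndufb4, Ndufa5 (2 probes), Ndufb2 and Ndufa4 in kidney medulla and kidney cortex, normalized over both tissues, with 1 point per mouse and lines for the mean and SD (controls n = 5, groups A, B and C n = 3 each). For Ndufb9, Ndufb4, Ndufb2 and the dimmer Ndufa5 probe the medulla controls lie below groups A and B of the medulla, while the brighter Ndufa5 probe and Ndufa4 show no such gap.

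Other members came close to the threshold in the medulla without passing it. Ndufaf5 (probe ILMN_1216813), an assembly factor, had a ratio of 1.08 for A, 1.18 for B and 0.66 for C (adjusted p = 0.0202, 0.0139 and 0.116 by limma), Ndufab1 0.95, 1 and 0.38, and Ndufb5 0.61, 0.71 and 0.58. The brighter Ndufaf5 probe ILMN_2747677 went the other way. Normalized over both kidney tissues, it lay at 9.04, 8.83 and 9.48 in medulla of group A and 9.29, 9.01 and 9 in group B. The medulla controls lay at 9.30 to 9.55. Ndufs4, an N module subunit that is mutated in Leigh syndrome in humans, was read by 4 probes. Its probe ILMN_2663694 had medulla levels of 10.48, 10.57, 10.94, 10.98 and 11.06 in the controls and 11.53, 11.54 and 11.70 in group A, with ratios of 0.78, 0.72 and 0.40 (adjusted p = 0.0101, 0.0139 and 0.121 by limma). The brightest Ndufs4 probe ILMN_1234521 overlapped its controls, with 12.58, 12.65 and 12.89 in group A and 12.60 to 12.79 in the medulla controls, normalized over both kidney tissues. At an unadjusted p under 0.05, 11 members were above controls in group A (12.5% of all probes) and 4 below (11.1%). In group B 11 were above (12.3%) and 0 below (10.5%). In group C the members with the largest ratios whose mice did not overlap the controls were Ndufb5, Ndufb2 and Ndufv3 (probe ILMN_3008277, −0.42, adjusted p = 0.0634).

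None of the core subunits was past the threshold in any comparison. In the medulla, Ndufv1, Ndufv2, Ndufs3, Ndufs7 and Ndufs8 had ratios of −0.15 to 0.08 (A), −0.05 to 0.13 (B) and −0.17 to 0.02 (C), all with adjusted p values of at least 0.407. Over 17 of the 18 comparisons, leaving out the thyroid of group A, the core ratios lay between −0.23 and 0.39. The thyroid of group A had all 5 below 0, from −0.56 for Ndufs8 to −0.42 for Ndufs7 (lowest adjusted p = 0.495 by limma). By module, the called members of the medulla were 1 of 6 probes of the Q module in both groups, 2 of 21 probes of the P module in group A and 3 of 21 in group B, and 0 of 14 probes of the N module and 0 of 6 probes of assembly factors. Ndufa4 had ratios of −0.10, −0.10 and −0.17.

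The median of the members in the medulla stayed close to that of all probes in groups A and B. The median ratio of the members was −0.0448 in group A, −0.0009 in group B and −0.131 in group C, beside −0.0509, −0.0481 and −0.0229 over all probes, and 20, 24 and 15 of the 49 members were above 0. The members with a control level under 11, a limit set after the values were seen, were 17 in number, and 13, 15 and 10 of them were above 0, with medians of 0.334, 0.531 and 0.319. The 32 members at 11 or more had medians of −0.0908, −0.0595 and −0.168, and none of them was called. Over all probes the medians under 11 and at 11 or more were −0.0511 and −0.0502 for A, −0.0502 and −0.0372 for B, and −0.0183 and −0.0541 for C. Calls over all probes were also more frequent under 11, with 1.51% against 0.49% for A and 1.95% against 0.49% for B.

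**Figure D3:**
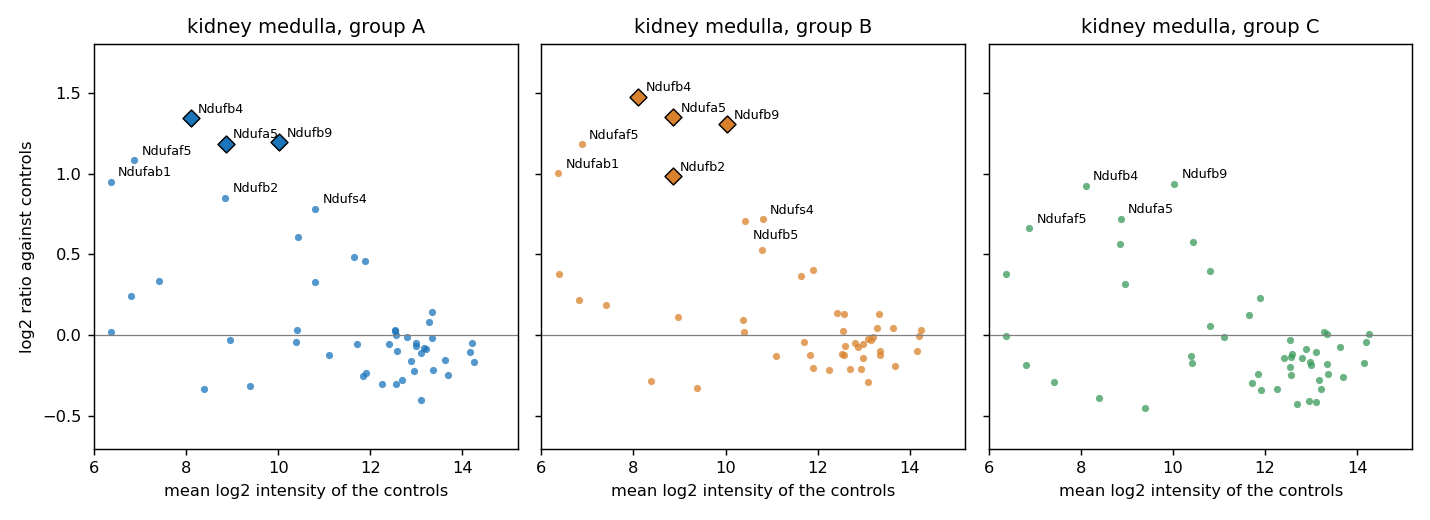
Log2 ratio to controls in the kidney medulla (vertical axis) against the mean control level of the probe (log2 intensity, horizontal axis) for the 49 Nduf members, with groups A, B and C in separate panels and diamonds for members past the threshold. The members that reach ratios near 1 all have control levels under 11, and the 32 brighter members lie between −0.42 (group C) and 0.48 (group A).

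Group C replicate 3 had the lowest share of detected probes among the medulla arrays (41.8%, the others 42.9% to 46.2%). This sample was singled out after its values were seen. It lay within the control range for Ndufb9, Ndufb4 and the Ndufa5 probe ILMN_2691460, so leaving it out raises their ratios in itself. Without it, 5 members rose in group C (4.86% of all probes) and 1 fell (1.99%). Ndufb9 (1.28, adjusted p = 0.000237 by limma), Ndufb4 (1.28), Ndufa5 (probe ILMN_2691460, 1.07), Ndufaf5 (probe ILMN_1216813, 1.05) and Ndufb5 (0.79) rose, and Ndufa3, a P module subunit, fell (−0.59, adjusted p = 0.00662). Proximal tubule markers (7 of 7 detected) lay at 10.9 to 11.1 in group A, 10.7 to 11.1 in group B, 9.3 to 11.1 in group C and 10.5 to 11.3 in the controls of the medulla. Markers of thick ascending limb and collecting duct (8 of 8 detected) lay at 10.8 to 10.9, 10.6 to 10.8, 10.7 to 10.9 and 10.6 to 10.7. In the medulla of group B replicate 3, lung epithelium markers lay at 9.37, beside 4.66 to 4.94 in the other samples. Without that sample the group B ratios of Ndufb9 and Ndufb4 were 1.34 and 1.47 (adjusted p = 0.0195 for both by limma), and no member was called. The lowest proximal tubule value was that of group C replicate 2, whose median over the members was also the lowest (−0.28 from the control mean). The part of these markers in the ratios was not tested.

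The medulla response was set against that of the cortex in a joint fit of both tissues. The log2 ratio in medulla minus that in cortex was past the threshold for 6 of 49 members in group A (all probes 2.78%), for 7 in group B (3.03%) and for 0 in group C (0.00774%), and all these differences were positive. With 1 mouse left out the counts ran from 0 to 4 for A, with 0 whichever of the 3 group A mice was left out, from 2 to 4 for B, and from 0 to 3 for C, with 3 only without group C replicate 3. For Ndufa5 (probe ILMN_2691460) the difference was 1.52 in group A and 1.87 in group B, for Ndufb4 1.45 and 1.78, for Ndufb9 1.47 and 1.58, and for Ndufaf5 (probe ILMN_1216813) 1.32 and 1.33. Ndufs4 gave 1.04 and 0.89 by its probe ILMN_2663694 and 0.67 in group A by its probe ILMN_2640944, and Ndufb2 (1.09) and Ndufb5 (0.98) passed in group B only. The brightest probes of 3 of these genes did not pass in groups A and B. They gave −0.03 and 0.14 for Ndufa5, −0.41 and −0.25 for Ndufaf5, and 0.13 and 0.30 for Ndufs4. Whether these differences were unequal between groups A and B was not tested.

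On the joint scale of both kidney tissues, Ndufa5 (probe ILMN_2691460) lay at 9.97 to 10.34 in control cortex, 8.71 to 9.07 in control medulla, 9.94 to 10.29 in medulla of group A and 10.20 to 10.36 in medulla of group B. Ndufb9 lay at 11.15 to 11.39 in control cortex, 9.86 to 10.45 in control medulla, 11.19 to 11.39 in medulla of group A and 11.36 to 11.48 in medulla of group B. In medulla of group C they lay at 8.93 to 10.35 and 10.36 to 11.50, with replicate 3 within the range of the medulla controls. For Ndufb9 and this probe of Ndufa5 the medulla of groups A and B thus reached or passed the range of the control cortex, which the control medulla did not. The brighter Ndufa5 probe ILMN_1216007 showed no such gap, with 13.19 to 13.50 in control cortex, 13.22 to 13.48 in control medulla and 13.15 to 13.31 in medulla of group A. In the cortex itself, group B had 9.49 to 9.80 for Ndufa5 (probe ILMN_2691460) and 10.78 to 11.37 for Ndufb9.

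**Figure D4:**
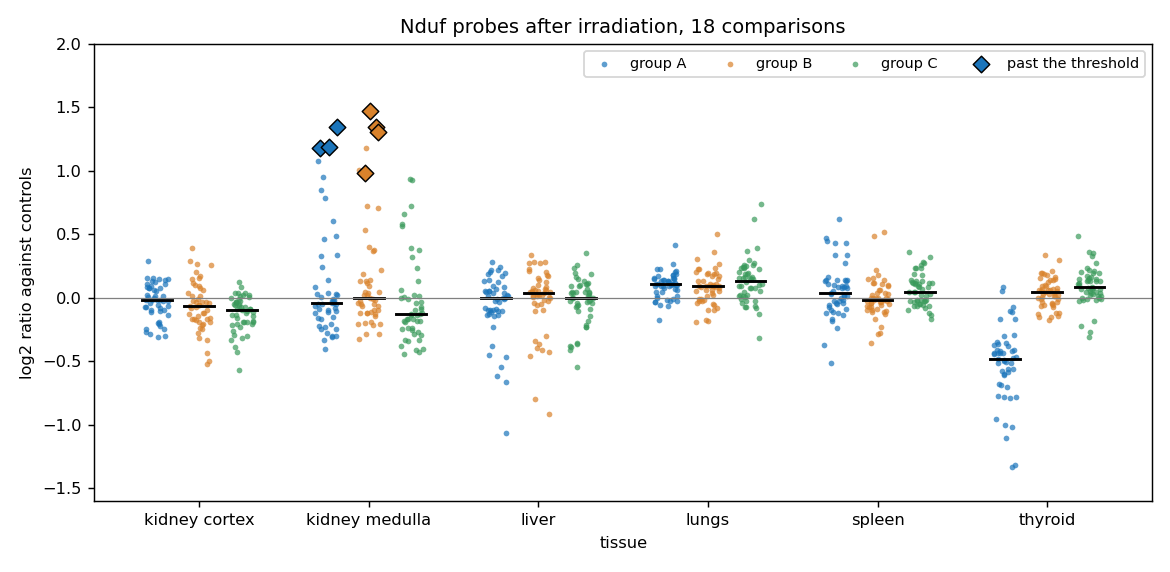
Log2 ratio to controls of the Nduf members (vertical axis) in the 18 comparisons of groups A, B and C with controls in 6 tissues, with 1 point per tested probe (49 or 50 per comparison) the median as a line and diamonds for members past the threshold. The members past the threshold are in the medulla of groups A and B, and the thyroid samples of group A have the lowest median (−0.481).

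In the liver of groups A and B the probes called in the medulla had ratios below 0, none of them past the threshold. At an unadjusted p under 0.05 there were 7 members in group A (8.05% of all probes), 6 in group B (5.31%) and 0 in group C (15.4%). Ndufb4 levels were 8.07, 7.77, 7.88, 8.48 and 7.92 in the controls. The mice of group A had 6.99, 7.18 and 6.71, those of group B 6.75, 7.09 and 7.49 and those of group C 6.45, 7.49 and 8.48. All mice of groups A and B were below all controls, and group C spread over both. The ratios were −1.06 in group A (SE 0.333, unadjusted p = 0.00609 and adjusted p = 0.424 by limma) and −0.91 in group B (adjusted p = 0.741). Ndufb9 had 10.56, 10.58, 10.61, 10.72 and 10.84 in the controls. The mice of group A had 9.90, 10.14 and 10.10, those of group B 10.15, 10.31 and 10.23 and those of group C 10.40, 10.42 and 11.28. Here again groups A and B lay below every control, with ratios of −0.62 (adjusted p = 0.391 by limma) and −0.43 (adjusted p = 0.883).

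Ndufab1 was at −0.80 in the liver of group B (unadjusted p = 0.000585, adjusted p = 0.366 by limma), and Ndufb5 at −0.47 in group A and −0.46 in group B. The 2 probes of Ndufa5 had opposite signs in the liver of group A, with 0.28 for the brighter one and −0.54 for ILMN_2691460. Their difference was not past the threshold. The median over the 49 members was −0.0038 in group A, 0.0386 in group B and 0.0005 in group C, beside 0.0112, 0.0115 and 0.002 over all probes. Hepatocyte markers lay at 10.6 to 11.1 in group A, 10.5 to 10.8 in group B, 10.6 to 11.3 in group C and 10.9 to 11.2 in the controls, and their part in these ratios was not tested. Liver of group C replicate 3, the highest for Ndufb4 and Ndufb9 among the irradiated mice, also had the highest hepatocyte marker level.

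In the kidney cortex, 1 member had an unadjusted p under 0.05 in group A (7.76% of all probes), 4 in group B (13.9%) and 3 in group C (8.61%). The members named were Ndufs4 (probe ILMN_2663694, −0.24) in group A, Ndufa5 (probe ILMN_2691460, −0.50, adjusted p = 0.285 by limma) and the N module subunit Ndufs6 (0.39, adjusted p = 0.222) in group B, and the assembly factor Ndufaf3 (−0.57, adjusted p = 0.547) in group C. Cortex levels of Ndufs6 were 13.78, 13.70, 13.73, 13.81 and 13.59 in the controls and 14.33, 14.07 and 13.93 in group B. The group B mice were above all controls by a small margin. The cortex median over the members was −0.0202, −0.0664 and −0.0929 in groups A, B and C, with 9 of 49 members above 0 in group C. Cortex of group C replicate 3 was the lowest of that group, with a median of −0.23 from the control mean and proximal tubule markers at 10.94, beside 11.46 to 12.19 in the other cortex samples. The part of the proximal tubule in that median was not tested.

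In the lungs most members lay slightly above controls. The median ratio was 0.108 in group A (40 of 50 members above 0), 0.091 in group B (36) and 0.133 in group C (40), beside medians of all probes of 0.0055 to 0.0334. None was past the threshold, and 0, 0 and 4 members had an unadjusted p under 0.05 in groups A, B and C (1.08%, 5.33% and 5.95% of all probes). Ndufb9 had lung levels of 9.40, 9.32, 9.02, 9.5 and 9.25 in the controls and 10.16, 9.46 and 10.49 in group C, overlapping by 1 mouse, with a ratio of 0.74 (adjusted p = 0.671 by limma). Ndufs3 (0.39) and Ndufv3 (probe ILMN_2688822, 0.62, both adjusted p = 0.798) were higher in all group C mice than in all controls.

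Heart muscle is known to be rich in mitochondria, and its markers varied between the lung samples. The median over the members was 0.25, −0.16 and 0.33 from the control mean in group C, with heart muscle markers at 10.97, 7 and 10.04. In group A the medians were 0.05, 0.03 and 0.23 with markers at 9.86, 8.83 and 10.38, and in group B −0.07, 0.14 and 0.23 with markers at 6.04, 7.91 and 9.07. The controls had medians of 0.03, 0.04, −0.10, 0.02 and −0.01 with markers at 8.49, 10.47, 6.76, 8.76 and 10.52. In each of the 4 groups, the mouse with the lowest median was also the one with the lowest marker level. The mouse with the highest median had the highest marker level in groups A and B, but not in group C or in the controls. Control replicate 5 had the highest marker level of the controls (10.52) and a median of −0.01. The part of heart tissue in the lung ratios was not tested.

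In the spleen, no member with an unadjusted p under 0.05 stood clear of the controls, 3, 0 and 0 members had such a p in groups A, B and C (9.95%, 9.6% and 10.2% of all probes), and the medians over the members were 0.0359, −0.0188 and 0.0491 in groups A, B and C. Ndufb9 levels in spleen were 9.05 to 9.30 in the controls, 9.47 to 9.78 in group A, 8.40 to 9.31 in group B and 9.11 to 9.86 in group C.

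In the thyroid samples, 48 of 50 members were below 0 in group A, with a median of −0.481, and none was past the threshold. Of these, 8 had an unadjusted p under 0.05 (8.48% of all probes), all with an adjusted p of 0.495 by limma. The median over the members was −0.65 in replicate 1, −1.15 in replicate 2 and 0.28 in replicate 3 of group A, so that the 3 mice did not lie on the same side of the controls. Replicate 2 is the sample with salivary gland markers and without skeletal muscle markers, and without it the group median was −0.198. Replicate 1 had Tg at 14.52. Among the controls, replicate 4 had Tg at 14.41 and a member median of −0.54, beside 0.05 to 0.19 in the other controls. Group C replicate 3 also had a high Tg level (14.15) and had a member median of 0.07. The part of the tissue taken in these medians was not tested. Group B had a median of 0.0418 and group C of 0.0816, each with 0 members at an unadjusted p under 0.05 (0.906% and 1.32% of all probes). Ndufb9 levels in thyroid samples were 11.44, 11.07, 11.11, 9.66 and 11.18 in the controls and 9.55, 9.44 and 11.60 in group A, the low control being replicate 4.

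**Figure D5:**
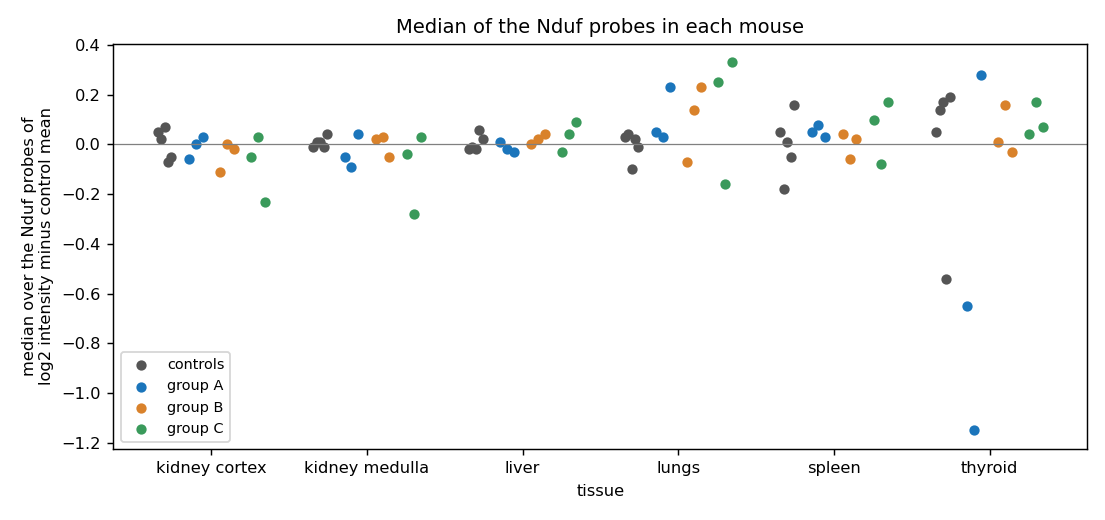
Median over the Nduf members of the difference between a sample and the control mean of its tissue (log2, vertical axis), with 1 point per mouse for controls and groups A, B and C in the 6 tissues. Thyroid samples spread most, from −1.15 to 0.28, and the samples of the other tissues lie between −0.28 and 0.33.

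Genes read by more than 1 probe show how far the members depend on the probe. In 4 tissues 10 pairs of probes of 7 genes could be compared, and in lungs and thyroid 11. The brightest probe of a gene was set against each of its other probes within an array. In the medulla the log2 ratios of 1 of 10 pairs differed in group A (all such pairs 3.73%), of 2 in group B (4.64%) and of 0 in group C (1.28%), and in the other tissues 0 pairs differed (0.0342% in the spleen of group A and 0% in the rest). For Ndufa5 the difference was −1.26 in group A (SE 0.242, adjusted p = 0.00425 by limma) and −1.37 in group B (adjusted p = 0.00311). For Ndufs4, the probes ILMN_1234521 and ILMN_2663694 differed by −0.84 in group B (adjusted p = 0.00849). Ndufaf5 had larger differences that did not pass, −1.39 in group A (adjusted p = 0.022) and −1.51 in group B (adjusted p = 0.0141). The files do not say which transcripts of a gene each probe reads.

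The probes of a gene were also compared across the control tissues. Of the 10 pairs, 9 had their highest level in the thyroid samples by both probes, and the exception was Ndufv3, whose dim probe ILMN_2688822 was highest in liver. The spread of the difference between 2 probes over the 6 tissue means ran from 0.405 for Ndufv3 (probe ILMN_3008277) to 1.81 for Ndufa5. The dimmer probes of Ndufa5 (ILMN_2691460), Ndufaf5 (ILMN_1216813) and Ndufs4 (ILMN_2663694) placed the liver above the medulla, while the brightest probes of these genes placed it below.

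Genes of the other respiratory complexes were called in the medulla alongside the Nduf members. In groups A and B, in which 1.24% and 1.74% of all probes rose, 3 of 10 probes of complex II rose (Sdhb, Sdhc and Sdhd, the subunits that carry electrons and anchor the complex in the membrane). In complex IV, 1 of 16 probes rose in both groups (Cox7b). In complex V, 2 of 16 rose in group A (Atp5a1 and Atp5j) and 3 in group B (with Atp5e). In complex III 0 of 8 probes were called, and 1 probe was below an unadjusted p of 0.05 in each group. Aifm1, which is needed for complex I assembly, was called among 20 probes of assembly factors not named Nduf. None of these probes fell, none was called in group C, and none was called in another tissue. Regulators of mitochondrial biogenesis (7 of 8 genes tested) had no call. The medians of complexes II, III, IV and V in group A were 0.169, −0.0526, −0.145 and 0.0245, beside −0.0509 over all probes. For comparison, 5 of 14 probes of p53 targets rose in the medulla of group B (Ccng1, Phlda3 and Trp53inp1) and 0 in group A. These counts do not show a difference between the groups, since 0% of all probes differed between A and B in the medulla past the threshold. The paper lists Trp53inp1, and also Ndufb9, among the overexpressed genes that it chose for PCR on the medulla of group A.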

How the data were processed

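RNA from each of the 6 tissues of 14 mice was labelled and measured on Illumina MouseRef-8 microarrays, 88 in all, since 2 samples were measured on 3 arrays each. The authors deposited a table of probe intensities without normalization, a detection p-value for each intensity and a table of quantile-normalized intensities. How the detection p was derived is not given in the sources used here. Per the series' design text samples were not pooled, and per the methods RNA quality was checked before labelling. Gene symbols came from the platform annotation, under which 1719 of 25697 probes have none. Coordinates and promoters came from RefSeq tables of GRCm38.p6, since the files name no build.

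The intensities without normalization were background corrected with the nec function of limma 3.58.1 (R 4.3.3, offset 16), which infers the negative controls from the detection p, and then quantile normalized within each tissue, over the controls of all tissues for the tissue comparison, and over both kidney tissues for the kidney comparison. Repeat arrays were averaged per mouse. Moderated linear models were fitted on the log2 scale over all tested probes, with Benjamini-Hochberg adjustment, and calls needed an adjusted p below 0.01 with a log2 ratio of 0.58 or more. The model was tested on simulated data. Arrays carry no depth, and their number limits the precision. Nothing says that mice of a group were treated on separate days, so p-values measure the spread between these mice.

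The members and lists were chosen with earlier results of these data known. Named were all members past the threshold, up to 3 members per comparison with the largest ratio among those with an unadjusted p under 0.05 and no overlap, the nuclear core subunits, the 2 highest and 2 lowest genes of each tissue, genes whose probes differed, and Ndufb9 and Ndufa4. Normalization, background correction, filter, variance model, samples in the fit, replicate block and single mice left out were varied. No slide is named in the file headers, so a slide block was not run.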

Additional observations from a re-analysis of the deposited data

Results flagged for a closer look

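Single samples stood apart from the other controls of their tissue by Dixon's criterion in 9 of 66 tests. Each test took a probe, or the median over the members, in the controls of 1 tissue. Chance gives about 1 in 20 for a single test. The tests within a tissue used the same control samples and are not independent, so the count cannot be set against that rate. Of the 9, 7 fell on the thyroid sample of control replicate 4, the control with Tg at 14.41. That sample was low for Ndufa5 (probe ILMN_2691460, 8.72), Ndufb2 (8.92), Ndufb4 (7.67), Ndufb9 (9.66), Ndufs3 (11.91) and Ndufs8 (12.14) and for the median over all members (−0.54). Single values stood apart for Ndufv2 in the cortex of control replicate 2 (13.61) and for Ndufs8 in the spleen of control replicate 2 (11.2).

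Medulla and cortex of the kidney gave different log2 ratios in a test of the difference itself. The excess in medulla was 1.52 in group A and 1.87 in group B for Ndufa5 (probe ILMN_2691460), 1.45 and 1.78 for Ndufb4, 1.47 and 1.58 for Ndufb9, 1.32 and 1.33 for Ndufaf5 (probe ILMN_1216813), and 1.04 and 0.89 for Ndufs4 (probe ILMN_2663694). It was 0.67 in group A for Ndufs4 (probe ILMN_2640944), and 1.09 for Ndufb2 and 0.98 for Ndufb5 in group B. With 1 mouse left out, the count of such members ran from 0 to 4 in place of 6 in group A and from 2 to 4 in place of 7 in group B.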

How the results depend on the processing

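In the 15 comparisons outside the medulla, no member was called under any alternative run. In the medulla the count of members called in group A, 3 as reported, was 5 with the authors' normalized values, 5 without background correction, 5 with quantile normalization over all tissues, 5 with detection required on every array, 5 with a variance trend and robust moderation, 6 with groups B and C kept out of the model, and 0 when no filter was set. In group B, 4 as reported, it was 2 when no filter was set and 7 by the robust trend model. Leaving out 1 mouse at a time gave 0 to 1 members for group A, 0 to 4 for group B and 0 to 6 for group C. The count of members that differed between medulla and cortex in their ratio then ran from 0 to 4 for group A, from 2 to 4 for group B and from 0 to 3 for group C. Probe pairs that differed in the medulla were 3 in group A and 1 in group C with the authors' values and likewise without background correction, and 0 to 1 for A, 0 to 1 for B and 0 to 4 for C with 1 mouse left out.

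The labels give equal replicate numbers in all groups and tissues without saying what they share. Deviations of samples with the same number in different groups of a tissue correlated with a mean r of −0.0724 to 0.0565, and samples of control cortex and control medulla with the same number with a mean r of 0.144, over 0.1 for 3 of 5 pairs, beside −0.0354 for different numbers. Since not every pair was over 0.1, the numbers were not taken as pairs. With the replicate number as a block, the medulla had 0 members called in each of the groups A and B, and 0 probe pairs that differed in either group. In the joint kidney fit the block was another one, a correlation between cortex and medulla samples of the same group and number. With it the difference between medulla and cortex passed for 6, 7 and 0 members for A, B and C, the counts without a block. That fit was not run with the replicate number as a block across groups. In the medulla fit with the block, Ndufb9 in group A had a ratio of 1.21 (adjusted p = 0.0344 by limma). Outside the medulla of groups A and B, the block changed only the count between control cortex and control medulla, from 7 to 6 members.

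Median scaling moved the median of all probes by over 0.1 in the spleen of group A (from 0.0022 to −0.188) and in thyroid of group A (from −0.0462 to −0.38). The member medians were then −0.134 in the spleen of group A, −1.01 in the thyroid samples of group A, 0.0646 in the cortex of group A, −0.0119 in the liver of group B, and −0.165, −0.127 and −0.244 in the medulla of groups A, B and C. With 1 mouse left out, the median of group C ran from −0.153 to −0.0081 in cortex and from −0.205 to −0.017 in medulla.

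Between control tissues, median scaling gave 13 members between medulla and liver and 38 between liver and spleen, and lungs and spleen differed in 2 members with the authors' values and in 2 without background correction. With 1 replicate number left out, the counts ran from 3 to 8 between cortex and medulla, from 17 to 29 between cortex and thyroid samples, and from 2 to 4 between lungs and spleen. The tissue medians under median scaling were 0.691 for cortex, 0.394 for medulla, 0.115 for liver, −1.27 for lungs and −0.991 for spleen. Without the thyroid samples they were 0.803, 0.75, 0.0544, −0.894 and −0.649. With the authors' values the medulla had 0.454 and the lungs −0.942, and without background correction 0.459 and −0.946. The liver thus changed sign under both median scaling and the omission of the thyroid samples, and lay between −0.221 and −0.145 with 1 replicate number left out.

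Of the ratios of named probes recomputed, 310 kept their direction and side of the threshold. Another 61 kept their direction and lost the call, 47 of them with 1 mouse left out. A call was gained by 1 (Ndufb5 in the medulla of group C without group C replicate 3), and none changed sign. Only the 3 ratios called in the medulla of group A and the 4 of group B had a call to lose. Most of the 310 values came from ratios without a call, so 310 does not measure how firm the calls are. The cause of the changes was not tested. Dim probes such as Ndufab1 in lungs, detected on 1 of 5 control arrays, are limited by signal over background.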
